A study of Mus musculus with 2 samples.

Results

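Mt1, Mt2, Fkbp5, Tsc22d3, Sgk1, Zbtb16 and Dusp1, a set of metallothionein and glucocorticoid target genes, were followed in mouse liver by mRNA sequencing. The set was chosen with earlier results of these data known. Its rows were matched by gene symbol, and all 7 genes were found among the 53342 rows of each deposited table. The liver of a control mouse group was set against that of iFIRKO mice, in which the insulin receptor is removed from fat cells of the adult animal, and each group was represented by 1 library. Both groups were male, were 7 weeks old at treatment, received tamoxifen at 100 mg/kg by intraperitoneal injection for 5 days and were sampled 3 days after the final injection. The iFIRKO genotype was Adipoq-CreERT2; Insr flox/flox, so that the Cre recombinase was driven by the adiponectin promoter. The study describes the knockout as adipocyte-specific, and Cre action in hepatocytes was not tested here. The sample labels give the control genotype as WT, whereas the study's methods describe floxed animals without Cre, and tamoxifen was given to the controls as well. The sources used here do not state whether a library came from 1 mouse or from a pool, so the values below compare a pair of libraries and no p-value was computed. Neither circulating glucocorticoid nor the time of day of sampling was among the measurements used here.

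The deposited value of a gene was the log2 of a normalized read count, which was returned to the linear scale and is called normalized reads below. The linear values summed to 42003900 in the control and 41579630 in the iFIRKO library, and about 21138484 and 20652740 read pairs were estimated to lie behind them. The log2 fold change was taken as iFIRKO over control with a pseudocount of 4.18 normalized reads (a CPM, the usual depth-scaled read count, of 0.1). It was computed for the 13400 genes that reached 41.8 normalized reads (a CPM of 1) in at least 1 library, which are called the genes tested. A gene was called higher or lower when its fold passed 1.5, which is 0.58 on the log2 scale. Fold changes of the 7 genes, and of some other genes, carry a 95% interval from the estimated read pairs, which covers counting error only. Insr had 4246 normalized reads in control liver and 3692 in iFIRKO liver, or -0.20 on the log2 scale (interval -0.29 to -0.11). Since the deletion was directed at adipocytes, this liver value does not check the labels. The hepatocyte markers Alb and Ttr were abundant in both libraries, with at least 3944155 and 203980 normalized reads. Of 7 fat cell genes, Lep and Retn were listed at 0 in both libraries, meaning at most 1 scaled read. Adipoq and Plin1 had 0 in the control and 2.01 in the iFIRKO library, and Cfd had 0 and 8.05. Fabp4 had 470 and 469 normalized reads and Cidec 17.9 and 108.

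Glucocorticoids are adrenal steroids that bind the glucocorticoid receptor, encoded by Nr3c1. The receptor waits in the cytosol in a complex with heat shock proteins and moves to the nucleus once it has bound hormone, where it can occupy glucocorticoid response elements and switch on nearby genes. In liver the hormone is known for driving glucose production and for restraining inflammation. Fkbp5 encodes an immunophilin of the receptor complex that lowers hormone affinity and so forms a feedback loop. Tsc22d3 encodes the glucocorticoid-induced leucine zipper protein GILZ, Dusp1 a phosphatase that switches off MAP kinases, Sgk1 a serum and glucocorticoid regulated kinase, and Zbtb16 the zinc finger transcription factor PLZF. Metallothioneins are small cysteine-rich proteins that bind zinc and copper. Their genes are induced by zinc through the transcription factor MTF-1 at metal response elements, and by glucocorticoids.

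The metallothionein genes lie side by side on mouse chromosome 8 on the forward strand (build GRCm38, GENCODE M21 annotation). Mt2 spans chr8:94172664-94173568, Mt1 spans chr8:94179082-94180327, and 5513 bases separate the end of Mt2 from the start of Mt1. Dusp1 lies on the reverse strand at chr17:26505590-26562128 and Sgk1 on the forward strand at chr10:21882184-21999903. Promoter windows of 300 bases, from 250 before the transcription start to 49 after its first base, were taken from RefSeq (GRCm38.p6) for 6 of the 7 genes, 13 windows in all. Those of the metallothioneins, of Sgk1 at the fifth of its 6 listed starts and of Dusp1 are printed 5′ to 3′ on the gene's strand. They were chosen because they hold repeated metal response element cores or an exact match to a glucocorticoid or cyclic AMP response element. Capitals mark that match only, which is a metal response element core in the Mt1 and Mt2 windows, a palindromic glucocorticoid response element in that of Sgk1 and a cyclic AMP response element in that of Dusp1.
Mt1 promoter, chr8:94178839-94179138, forward strand: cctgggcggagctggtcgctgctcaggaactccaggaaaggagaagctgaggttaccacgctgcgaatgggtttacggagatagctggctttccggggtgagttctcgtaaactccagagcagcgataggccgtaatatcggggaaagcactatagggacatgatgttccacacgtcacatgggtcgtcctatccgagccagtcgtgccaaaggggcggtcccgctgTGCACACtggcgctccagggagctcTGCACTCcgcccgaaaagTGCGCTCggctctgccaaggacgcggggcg
Mt2 promoter, chr8:94172368-94172667, forward strand: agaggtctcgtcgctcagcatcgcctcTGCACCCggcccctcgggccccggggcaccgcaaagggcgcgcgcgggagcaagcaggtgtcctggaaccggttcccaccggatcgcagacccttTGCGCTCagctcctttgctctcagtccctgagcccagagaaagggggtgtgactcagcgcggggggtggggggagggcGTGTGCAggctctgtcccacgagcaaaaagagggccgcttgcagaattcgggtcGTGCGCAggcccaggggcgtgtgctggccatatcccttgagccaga
Sgk1 promoter at the fifth start, chr10:21993640-21993939, forward strand: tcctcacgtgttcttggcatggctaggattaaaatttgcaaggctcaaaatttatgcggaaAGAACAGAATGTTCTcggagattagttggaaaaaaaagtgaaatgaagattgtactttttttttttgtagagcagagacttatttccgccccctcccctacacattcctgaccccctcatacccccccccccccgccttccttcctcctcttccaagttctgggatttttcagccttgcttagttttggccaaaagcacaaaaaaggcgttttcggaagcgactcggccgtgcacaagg
Dusp1 promoter, chr17:26508423-26508722, reverse strand: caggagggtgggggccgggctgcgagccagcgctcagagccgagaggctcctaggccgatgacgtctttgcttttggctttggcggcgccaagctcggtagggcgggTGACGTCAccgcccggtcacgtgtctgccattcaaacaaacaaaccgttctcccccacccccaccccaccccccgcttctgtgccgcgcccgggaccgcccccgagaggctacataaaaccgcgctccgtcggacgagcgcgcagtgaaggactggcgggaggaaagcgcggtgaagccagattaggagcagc

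The metal response element core was searched as TGCACNC and TGCGCNC on both strands. The Mt1 window held 3 cores, all on the forward strand, and 1.97% of the 32851 RefSeq mouse windows of this length held 3 or more. The Mt2 window held 4 cores, 2 of them on the forward strand, and 0.517% of windows held 4 or more. The Mt1 cores at bases 2 to 8 and 20 to 26 and the Mt2 core at bases 4 to 10 lay after the RefSeq start. A single core was common, since 25.7% of windows had at least 1, among them the windows of Dusp1, where it is not capitalized, and of Sgk1 at its sixth start, which is not printed. The glucocorticoid response element was searched as AGAACA and TGTTCT with 3 bases between them, a strict form that 3 of the 32851 windows held (0.00913%). The Sgk1 match began at base -189 relative to the fifth start, which lies 776 bases upstream of the sixth start. The cyclic AMP response element, TGACGTCA, was present in 1.79% of windows and lay at bases -143 to -136 relative to the Dusp1 start. The windows of Fkbp5 and Tsc22d3 held no exact match to any of these letters, and Zbtb16 had no window in the table. The GENCODE transcript used for the level of Fkbp5 starts at base -31375 relative to its single RefSeq start. That of Tsc22d3 starts at base -519 relative to the nearest of its 3. The windows before those transcript starts of Fkbp5 and Tsc22d3 were therefore not searched. On the same scale the transcripts of Mt1, Mt2 and Dusp1 start at bases -7, 46 and -47, so distances from those starts differ from the ones given. A match describes letters and does not show that a factor was bound in these livers, and elements farther from the start were not searched.

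**Figure D1:**
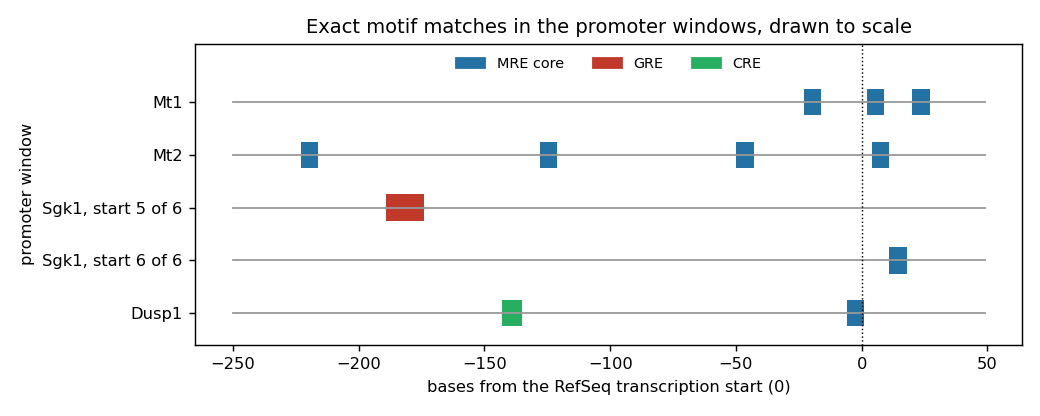
Positions of the exact motif matches in the RefSeq promoter windows that held at least 1, in bases from the transcription start, which is 0. Each grey line is a 300-base window and each box a match, blue for the metal response element core, red for the glucocorticoid response element and green for the cyclic AMP response element. The Mt1 window has 3 boxes and the Mt2 window 4.

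Compared per length, the metallothioneins stood far above the other genes in both livers. Mt1 had 14054 normalized reads per kb of its annotated principal transcript in the control and 12901 in the iFIRKO library. Mt2 had 13723 and 14755 on the same scale. Their counting intervals overlapped in the control and not in the iFIRKO library, in which Mt2 was above Mt1. Tsc22d3 followed at 1907 and 2402 normalized reads per kb. Dusp1 was next at 1302 and 1856, and Fkbp5 after it at 589 and 708. The lowest were Sgk1, at 348 in either library, and Zbtb16, at 279 and 266 normalized reads per kb. No other neighbours in this order had overlapping intervals in either library. The order depended on the length used. Over the union of all annotated exons, Mt2 was the highest in both libraries (11926 and 12823 normalized reads per kb, against 6192 and 5684 for Mt1), Dusp1 and Tsc22d3 overlapped in the iFIRKO library, and Zbtb16 and Fkbp5 overlapped in both.

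**Figure D2:**
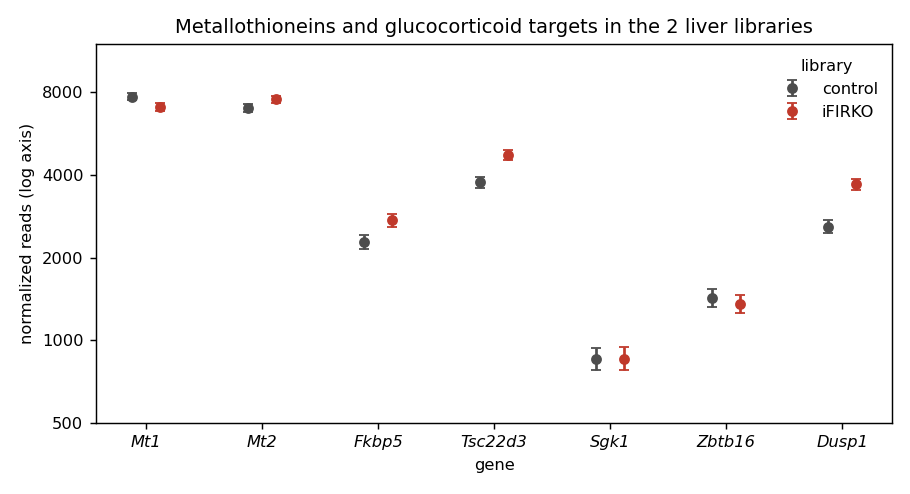
Normalized reads (log axis) of the 7 genes in the control (grey) and iFIRKO (red) liver library, with vertical bars for the 95% counting interval. The intervals of the libraries meet for Sgk1 and Zbtb16, and the widest gap is that of Dusp1, at 2592 in the control and 3694 in the iFIRKO library.

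None of the 7 genes passed a 1.5-fold difference between the libraries, while 4.46% of the genes tested were called higher in the iFIRKO liver and 7.28% lower. All 7 were well covered, with CPM values of 20.5 or more. Among the 5914 genes that reached a CPM of 20 in at least 1 library, these shares were 2.35% and 3.09%. The median log2 fold change of the 7 genes was 0.10, and that of the 5 glucocorticoid targets alone was 0.26, beside 0.01 over all genes tested, whose quartiles were -0.19 and 0.17. The interval lay above 0 for 4 genes, Dusp1, Tsc22d3, Fkbp5 and Mt2, and below 0 for Mt1. Intervals above 0 were found for 20% of the genes tested and intervals below 0 for 20%. At a CPM of 20 or more, where counting error is smaller, the shares were 30.1% and 25.2%. The intervals of Sgk1 and Zbtb16 spanned 0.

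**Figure D3:**
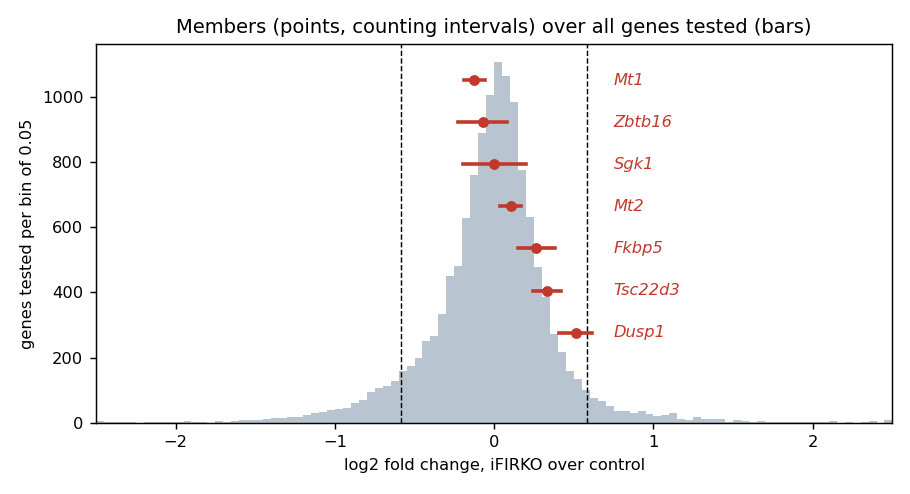
Log2 fold changes, iFIRKO over control, of the 13400 genes tested (bars, genes per bin of 0.05, with values beyond the axis collected in the end bins) and of the 7 genes (red points at arbitrary heights, with 95% counting intervals). Dashed lines mark the 1.5-fold threshold in either direction, which no red point crosses, and the Dusp1 interval reaches across the upper line.

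The metallothioneins were nearly level between the livers. Mt1 (ENSMUSG00000031765.8) had 7717 normalized reads in control liver and 7083 in iFIRKO liver. Its log2 fold change was -0.12 (interval -0.19 to -0.06), a difference of -8.2%. Mt2 (ENSMUSG00000031762.7) had 7013 and 7539 normalized reads. Its log2 fold change was 0.10 (interval 0.04 to 0.17), a value 7.5% higher. The differences were small and opposite in direction, and 36.7% of the genes tested had a smaller absolute log2 fold change than Mt1 and 31.5% a smaller one than Mt2. Summed, they had 14730 normalized reads in control liver and 14622 in iFIRKO liver. The log2 fold change of the sum was -0.01 (interval -0.06 to 0.04). The ratio of Mt1 to Mt2 within a library, which does not depend on scaling, was 1.10 in the control and 0.94 in the iFIRKO liver. This change in ratio was -0.23 on the log2 scale (interval -0.32 to -0.14). The antisense gene Gm45774, which overlaps Mt2, had 25.7 and 6.01 normalized reads, so reads assigned to it were few beside those of Mt2. The family members Mt3 and Mt4, which are known from brain and from stratified epithelium, were listed at 0 in both libraries.

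Genes of metal sensing and metal transport gave 1 gene past the threshold. Mtf1, which encodes the zinc sensor MTF-1, had 752 normalized reads in control liver and 891 in iFIRKO liver. Its log2 fold change was 0.24 (interval 0.04 to 0.45). Slc30a1, a zinc exporter and classical MTF-1 target, had 1367 and 1143 normalized reads, or -0.26 on the log2 scale (interval -0.42 to -0.10). None of the 4 genes listed for MTF-1 passed 1.5-fold, nor did any of the 7 zinc exporters or 10 copper handling genes tested. Of the 13 zinc importers tested, Slc39a5 rose from 9.94 to 58.1 normalized reads, about 5 and 29 read pairs, and the others did not pass. This call is lost with a minimum CPM of 1 in both libraries. The median log2 fold changes were 0.10 for the MTF-1 genes, 0.11 for the exporters, 0.10 for the importers and, to 2 decimals, 0 for copper handling.

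Dusp1 showed the widest difference of the set. Dusp1 (ENSMUSG00000024190.7) had 2592 normalized reads in control liver and 3694 in iFIRKO liver, from about 1304 and 1835 read pairs. Its log2 fold change was 0.51 (interval 0.41 to 0.62), a value 42.5% higher, and the upper end of the interval lay past the 1.5-fold threshold. The same values on the fold scale are 1.43 (1.33 to 1.53). Of the genes tested, 762 had a higher log2 fold change and 85.2% a smaller absolute one. Ergic1 overlaps Dusp1 on the opposite strand and had 3009 and 3521 normalized reads, a log2 fold change of 0.23. No source used here says that counting used strand, so reads from the overlap cannot be told apart. The genes nearest to Dusp1 by the distance between their levels in the 2 libraries, a likeness over 2 points only, were Rdh16 (2545 and 3697 normalized reads), Rtfdc1 (2504 and 3613) and 4833439L19Rik (2712 and 3540).

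Tsc22d3 and Fkbp5 were higher in the iFIRKO library by less than the threshold. Tsc22d3 (ENSMUSG00000031431.13, chrX:140539528-140600659, reverse strand) had 3764 normalized reads in the control and 4742 in the iFIRKO liver. Its log2 fold change was 0.33 (interval 0.25 to 0.42), a value 26.0% higher, and 88.3% of the genes tested had a lower one. Fkbp5 (ENSMUSG00000024222.17, chr17:28399094-28517527, reverse strand) had 2273 and 2730 normalized reads. Its log2 fold change was 0.26 (interval 0.15 to 0.38), a value 20.1% higher, and 83.9% of the genes tested had a lower one. For either gene the counting intervals of the libraries were apart, while a spread between animals is not known here. Of the Tsc22d3 transcript, 1.04% of its 50-base words also occur in another gene's transcript, and none did for Fkbp5, Dusp1, Mt1 or Mt2.

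Sgk1 and Zbtb16 stood at nearly the same level in both livers. Sgk1 (ENSMUSG00000019970.15) had 855 normalized reads in control liver and 856 in iFIRKO liver. On the log2 scale the difference was 0.00 (interval -0.20 to 0.20). Zbtb16 (ENSMUSG00000066687.5, chr9:48654297-48836222, reverse strand) had 1426 and 1360 normalized reads. On the log2 scale the difference was -0.07 (interval -0.22 to 0.08). Neither interval reached the 1.5-fold threshold in either direction.

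Among the relatives of Tsc22d3, Sgk1, Fkbp5 and Zbtb16 that were tested, only Tsc22d1 passed 1.5-fold. Tsc22d1, another member of the TSC22 domain family, rose from 1365 to 2934 normalized reads, or by 1.10 on the log2 scale. Within a library its ratio to Tsc22d3 went from 0.363 to 0.619. Tsc22d2 had 734 and 805 normalized reads and Tsc22d4 had 670 and 612, and neither passed. Sgk2 had 1825 and 1503 normalized reads, a log2 fold change of -0.28 (interval -0.42 to -0.14). Sgk3 had 649 and 581, a log2 fold change of -0.16 whose interval (-0.39 to 0.07) spanned 0. Among the 13 immunophilins of the FKBP family that were tested, none passed 1.5-fold and the median was -0.05. Fkbp4, which competes with Fkbp5 for the receptor complex, had 10803 and 9020 normalized reads, and it was named after its values were seen. The ratio of Fkbp5 to Fkbp4 was 0.210 in the control and 0.303 in the iFIRKO liver. None of the 9 genes tested in the list around Zbtb16, which holds BTB zinc finger genes, Zbtb16 itself and the PLZF partner Cul3, passed 1.5-fold.

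MAP kinase phosphatases split in direction at low counts. Of the 8 tested, Dusp1 included, Dusp8 rose from 86.4 to 171 normalized reads, while Dusp2 fell from 54.5 to 14.1 and Dusp5 from 57.6 to 19.5. The median log2 fold change of the 8 was -0.10, and these 3 calls are lost at a minimum CPM of 5. The 5 MAP kinases tested, the substrates of these enzymes, had a median of 0.08 and none passed, and none of the 6 listed SGK substrates passed. Dusp1 is also an immediate early gene, induced within minutes by growth factors and stress. Of 16 other immediate early genes, 2 rose, Fosb (from 31.8 to 92.6 normalized reads) and Atf3 (from 99.1 to 168), and 5 fell. Over all genes tested, 4.46% were called higher and 7.28% lower. The median log2 fold change of the 16 was -0.31. With a minimum CPM of 5, which leaves out Fosb, Atf3 and other low genes of the list, none was called higher and the median was -0.58. Egr1, a growth factor induced transcription factor, fell from 11711 to 4991 normalized reads. Junb, a subunit of AP-1, fell from 4493 to 1850 normalized reads, and Ier2 from 2331 to 1047. Zfp36 and Myc were the others that fell. The ratio of Dusp1 to Egr1 within a library was 0.221 in the control and 0.740 in the iFIRKO liver, a log2 difference of 1.74 (interval 1.62 to 1.87). This was the widest of the Dusp1 ratios computed, and the log2 fold change of Egr1 itself, -1.23, enters it. The differences were 1.37 against Zfp36, 0.86 against Dusp6 and 0.76 against Nr3c1. The log2 fold changes of these partners, -0.86, -0.35 and -0.25, enter them as well. No ratio between genes was planned in the design.

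The receptor itself and the enzymes that set hormone supply gave no gene past 1.5-fold. Nr3c1 had 3299 normalized reads in control liver and 2778 in iFIRKO liver, or -0.25 on the log2 scale (interval -0.35 to -0.14). Hsd11b1, which regenerates active hormone inside hepatocytes, had 21758 and 21353 normalized reads, a log2 fold change of -0.03. The 7 genes of receptor and hormone supply tested had a median of -0.03. The 12 receptor chaperones and coregulators had a median of -0.01, and none of them passed either.

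Other known glucocorticoid targets in liver moved in both directions. Of 25 tested, 1 was called higher and 5 lower, beside 4.46% and 7.28% of all genes tested. The median log2 fold change of the 25 was -0.13. Cdkn1a, the cell cycle inhibitor p21, rose from 2536 to 4508 normalized reads. Igfbp1, a binding protein of insulin-like growth factors that insulin represses, fell from 19284 to 7234, a log2 fold change of -1.41. Irs2, an adaptor of the insulin receptor that insulin also represses, fell from 3005 to 1232 normalized reads. Gadd45b and Gadd45a, stress-induced growth arrest genes, fell from 549 to 235 and from 296 to 182. Zfp36, which destabilizes cytokine mRNAs and is also in the immediate early list, fell from 11825 to 6527 normalized reads. Per1, a clock gene with a direct response to the hormone, had 1149 and 1602 normalized reads, a log2 fold change of 0.48 that did not pass. By counting interval, 8 of these 25 lay above 0 and 14 below 0. Over all genes tested these shares were 20% and 20%. At a CPM of 20 or more they were 30.1% and 25.2%. The textbook gluconeogenic and amino acid targets did not pass in either direction, with log2 fold changes of -0.46 for Pck1, 0.35 for G6pc, -0.04 for Tat and 0.27 for Tdo2, genes that were named after their values were seen.

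**Figure D4:**
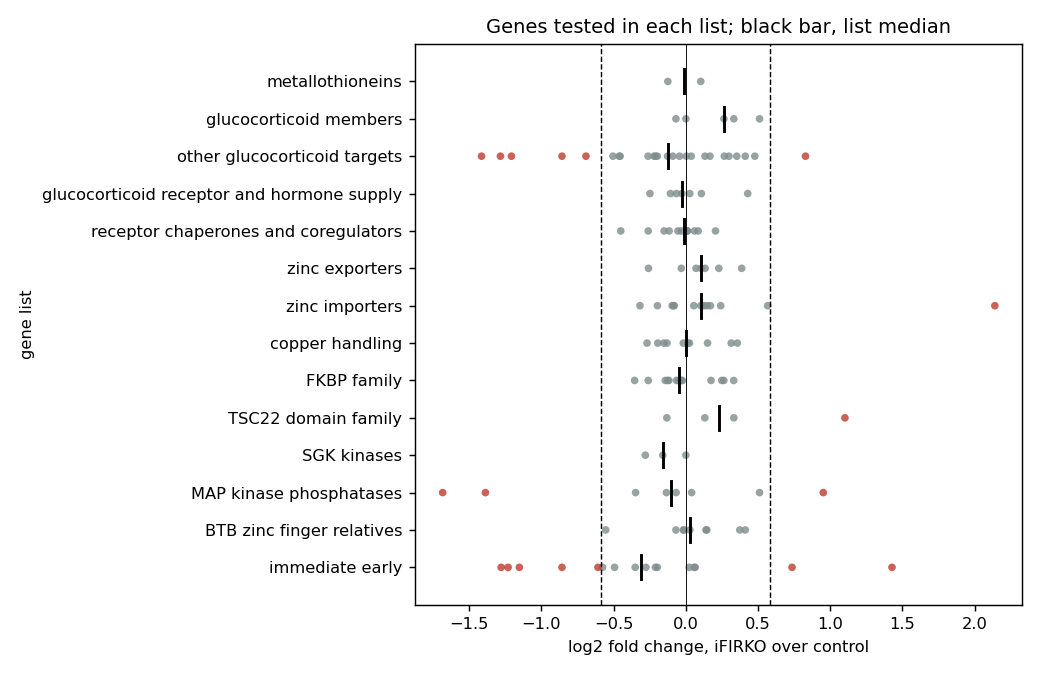
Log2 fold changes, iFIRKO over control, of the genes tested in each list (points, red where past 1.5-fold, which the dashed lines mark) with the list median as a black bar. The 5 glucocorticoid target genes have a median of 0.26 and no red point, beside -0.13 with 6 red points for the other glucocorticoid targets and -0.31 with 7 for the immediate early genes.

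In whole liver, fewer cells of a type and less RNA per cell cannot be told apart, and several of these genes are also expressed in cells other than hepatocytes. Leukocyte markers had lower summed levels in the iFIRKO liver. Of 10 Kupffer cell and macrophage markers 6 fell, and their summed level went from 30917 to 20911 normalized reads, with the defining markers Clec4f at 8728 and 5677 and Adgre1 at 1454 and 933. The 3 neutrophil markers tested, the 2 T and NK cell markers tested and 4 of 5 B cell markers tested also fell. Summed levels over all listed markers went from 677 to 260 normalized reads for neutrophils, from 369 to 182 for T and NK cells and from 808 to 368 for B cells. Of 9 endothelial markers 2 fell, Kdr and Pecam1, with a summed level of 14609 and 11334. None of 9 stellate or 5 cholangiocyte markers tested passed. The 6 erythroid markers tested all rose, from a summed 13473 to 27016 normalized reads over the list. Of 7 hepatocyte markers, Apoa1 fell, from 168382 to 87600 normalized reads, and the median was -0.08. Tsc22d3 and Dusp1, which leukocytes and endothelial cells also express, had higher values in the library with the lower summed leukocyte and endothelial markers. The summed stellate markers went from 13025 to 14211 normalized reads. Of the 2 adipocyte markers tested, Cidec, a lipid droplet gene that steatotic hepatocytes also express, rose from 17.9 to 108 normalized reads and Fabp4 had 470 and 469. The part of other cell types in the values of the 7 genes was not tested.

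Inflammatory and circadian genes, on which glucocorticoids are known to act, were also counted. Of 16 acute phase and cytokine response genes tested, Apcs and Il1b fell past 1.5-fold and none rose past it. Their median log2 fold change was -0.18. By counting interval, 4 of the 16 lay above 0 and 11 below 0, beside 20% and 20% of all genes tested. Of 16 clock genes, Ciart rose from 48.9 to 125 normalized reads, Per3 fell from 371 to 170 and Dbp from 49.2 to 22.2. Their median was -0.19. Over all genes tested, 4.46% were called higher and 7.28% lower. The hour of sampling was not among the labels, and the part of either list in the values of the 7 genes was not tested.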

How the data were processed

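Stranded mRNA libraries of liver RNA, 1 per group, were sequenced on an Illumina instrument by the authors. The authors deposited, for each gene symbol, a log2 normalized read count in which anything at or under 1 scaled read is listed as 0. The labels name mm10 as the build. The aligner, counter and annotation are not given in the sources used here. Values were returned to the linear scale, and the commonest low value was taken as 1 read pair (1.99 normalized reads in the control and 2.01 in the iFIRKO library). Of the low values, 46.5% and 48.3% were whole within 0.01 pair, so pair numbers are estimates and no count test was run. Intervals of fold changes are exact Clopper-Pearson intervals at 95%. Those of levels are exact Poisson intervals, and those of ratios between genes are Wald intervals on the log scale, also at 95%. With 1 library per group, no p-value was computed. The design was written before the unit was known, and its CPM limits were carried over by the total of normalized reads. Per-length levels used the GENCODE M21 principal transcript.

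The members and the 29 gene lists were chosen with earlier results of these data known. Named genes were the 7 members, Insr, up to 6 genes per list past 1.5-fold, a few fixed partners and the family relatives. Alb, Ttr, Lep, Retn, Fabp4, Fkbp4, Pck1, G6pc, Tat, Tdo2 and the overlapping genes were named after their values were seen. Dusp6, Adipoq, Plin1 and Cfd were also named outside these rules. Of the hepatocyte list, 7 of 8 symbols had a row. Alternatives changed the pseudocount (a CPM of 1, or none), the scaling (median ratio, trimmed mean, or the total less the 20 most abundant genes), the minimum (none, reached by both libraries, or a CPM of 5) and the fold (2). The code was tested on simulated data. The scripts ran under Python 3.11.15 with scipy 1.17.1, pandas 2.3.3, numpy 2.4.6 and matplotlib 3.10.9. Extracellular vesicle miRNA data were not analysed here.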

Additional observations from a re-analysis of the deposited data

How the results depend on the processing

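None of the 7 genes passed the fold threshold under any of the alternatives, and the log2 fold changes of Dusp1 ranged from 0.50 to 0.51, of Tsc22d3 from 0.32 to 0.34, of Fkbp5 from 0.25 to 0.27, of Mt2 from 0.09 to 0.11, of Mt1 from -0.14 to -0.12 and of Zbtb16 from -0.08 to -0.07. Sgk1 lay between -0.01 and 0.00, with no stable sign. Other scalings moved the median log2 fold change of the genes tested to between -0.01 and 0.01. The background counts depended on the limits. Beside 597 genes called higher and 976 lower, there were 209 and 267 with a fold of 2, 288 and 440 with a minimum CPM of 5, 1960 and 2620 with no minimum, and 371 and 576 with a pseudocount of a CPM of 1, and the direction of these counts, more genes lower than higher, was kept in each. Calls of low genes depended on the minimum. Slc39a5, Dusp2, Dusp5, Dusp8, Fosb, Atf3, Ciart, Dbp, Cidec, Il1b, S100a8 and Slc4a1 were below a CPM of 5 and are not called there. The same held for both T and NK cell markers and 3 of the 4 B cell markers. That minimum left 2 neutrophil markers called lower and 5 erythroid markers called higher. With a minimum CPM of 1 in both libraries, no zinc importer, adipocyte marker or MAP kinase phosphatase other than Dusp8 was called, and 1 immediate early gene was called higher, 1 clock gene lower and 1 T and NK cell marker lower. With a pseudocount of a CPM of 1, 1 immediate early gene was called higher, and 1 clock gene, 1 acute phase gene and 1 T and NK cell marker lower. With a fold of 2, the other glucocorticoid targets had none higher and 3 lower, the immediate early genes 1 and 3, the Kupffer cell and macrophage markers none lower and the erythroid markers 2 higher. With 1 library per group there was no pairing to use and no replicate to leave out. Depth limits the low genes most, and differences between animals were not measured by these libraries.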
